A study of Mus musculus with 2 samples.

Results

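The genes described here are Shh, Ptch1, Gli2 and Foxf1, a ligand, a receptor, an effector and a target of the Hedgehog pathway, with Insig1, a sterol regulator gene on the same stretch of chromosome 5 as Shh. They were chosen from the list of macroH2A1 peaks that the authors deposited: every peak assigned to 1 of these 5 genes, and every peak on chromosome 5 between positions 28000000 and 29500000. The first rule gave 8 peaks and the second 9, of which 5 were shared, so that 12 of the 2560 peaks of the list are described. Because the genes were chosen for having peaks, their number of peaks is a description and was not tested. DNA bound by the histone variant was sequenced after immunoprecipitation of chromatin (ChIP-seq) from E14, an established line of mouse embryonic stem cells, kept untreated on gelatine with leukemia inhibitory factor. The study has 2 libraries from these cells, 1 with an antibody raised against mouse macroH2A1 and 1 with non-specific IgG, and no replicate of either. The list gives positions, with no column for read count, enrichment or score, and the depth of the libraries is unknown, so each position below is the authors' value without an error. It holds no expression values, so the identity of the cells could not be checked against marker genes, nor can a peak be related here to the activity of its gene.

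MacroH2A1 is a form of histone H2A with a large additional globular domain, known for its presence on the inactive X chromosome and on developmental genes that are silent in a given cell type. In the Hedgehog pathway a secreted ligand such as Sonic hedgehog (Shh) binds Patched receptors, which releases the membrane protein Smoothened from inhibition and lets Gli transcription factors act on target genes. The pathway patterns the neural tube and limbs, and Ptch1 is itself among its targets. Insig1 encodes a protein of the endoplasmic reticulum that holds back the activation of sterol regulatory element-binding proteins when sterols are plentiful.

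The peaks of the 5 genes lay 9.09 to 88.7 kb from the gene starts, the closest at Shh. No peak covered the start of any of the 5, which is the usual position in this list, where 30 of 2560 peaks (1.17%) covered the start of their assigned gene. Shh, Ptch1, Gli2 and Foxf1 had 1 peak each and Insig1 had 4. All 5 genes had a peak, as their choice requires. Of 21631 genes that code for proteins, 6.16% had a peak assigned to them and 0.0462% (10 genes) had 4 or more. With peaks closer than 5 kb joined into 1, Insig1 had 3.

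The starts of the genes, where no peak lay, are shown by their upstream sequence, since the share of CpG dinucleotides there is a feature that the choice of genes did not use. RefSeq promoters (build GRCm38.p6, not the mm9 build of the peaks) were matched by symbol for 3 of the 5 genes, and the 250 bases before the start are printed 5′ to 3′ on the strand of the gene, with each CpG in capitals. RefSeq and the annotation used by the authors may place a start differently. All other coordinates below are those of the deposited list, in mm9. Ptch1 lies at chr13:63565736-63565985 on the minus strand, Gli2 at chr1:119053620-119053869 on the minus strand and Insig1 at chr5:28071162-28071411 on the plus strand.
Ptch1: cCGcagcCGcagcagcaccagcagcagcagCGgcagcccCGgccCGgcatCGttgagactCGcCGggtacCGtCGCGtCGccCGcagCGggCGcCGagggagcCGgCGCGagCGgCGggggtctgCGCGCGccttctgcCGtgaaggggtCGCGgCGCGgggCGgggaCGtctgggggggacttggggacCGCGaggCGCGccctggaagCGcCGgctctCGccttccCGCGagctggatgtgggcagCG
Gli2: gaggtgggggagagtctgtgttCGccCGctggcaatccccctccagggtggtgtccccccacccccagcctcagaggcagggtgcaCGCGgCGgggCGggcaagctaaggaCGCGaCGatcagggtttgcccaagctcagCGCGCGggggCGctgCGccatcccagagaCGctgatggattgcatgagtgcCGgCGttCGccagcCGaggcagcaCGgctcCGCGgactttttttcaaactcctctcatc
Insig1: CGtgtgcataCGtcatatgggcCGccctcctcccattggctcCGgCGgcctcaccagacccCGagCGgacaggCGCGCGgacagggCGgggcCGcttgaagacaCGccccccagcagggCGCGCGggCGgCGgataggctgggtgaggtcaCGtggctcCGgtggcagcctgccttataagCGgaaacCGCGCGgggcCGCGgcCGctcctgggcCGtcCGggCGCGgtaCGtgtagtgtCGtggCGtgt

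These 3 sequences are rich in CpG. Ptch1 had 41 CpG and a GC content of 78.4%, Insig1 had 34 and 72.8%, and Gli2 had 22 and 67.2%. Over the 32851 promoters of the RefSeq table the median was 6 CpG (interquartile range 2 to 16) and 52.4% GC (45.2 to 61.2%), so all 3 were above the upper quartile of both. Other Hedgehog genes with a peak, described below, were mixed. Hhip (28 CpG, 76% GC) and Foxf2 (21, 71.6%) were also above both, while Hhat (5, 49.2%) and Mycn (11, 54.8%) were above neither. Each promoter window, from 250 bases before to 50 after the start, was also searched on both strands for an exact GACCACCCA, the core of the site bound by Gli factors, and an exact TCACCCCAC, a sterol regulatory element. Neither was in the windows of Ptch1, Gli2 or Insig1, and 0.253% and 0.551% of all promoter windows held them.

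At the ligand, the Shh peak lay over the far end of the gene. Shh (ENSMUSG00000002633) is listed on the minus strand of chromosome 5 (mm9, 28783355 to 28793641, 10287 bp), and its peak spanned 28783200 to 28784550. Of the 1351 bp of the peak, 1196 bp (88.5%) lay inside the gene, covering 11.6% of it, and 155 bp lay past the gene end. Its nearest base was 9.09 kb downstream of the gene start. Among all peaks, 16 (0.625%) had this position, over the end of their assigned gene. The genes most like Shh, those with a single peak over the gene end at the most similar distance from the start, were Tmem171 (8.14 kb) and Fmod (10.5 kb), from 9 such genes with a symbol.

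At the receptor Ptch1 (ENSMUSG00000021466; minus strand of chromosome 13, 63609637 to 63666828) the peak lay upstream of the gene. It spanned 63694900 to 63696150 (1251 bp), 28.1 kb before the start. A further peak, assigned to the neighbouring gene Fancc, a DNA repair gene, lay past the other end of Ptch1 at 63580500 to 63581750. That region was also 1251 bp wide and was 85.1 kb from the Ptch1 start, so that Ptch1 lay between a peak on either side with none inside it. The genes with a single upstream peak at the most similar distance were Fam102a (28.1 kb) and Wwc2 (28.1 kb), from 661 genes with that arrangement.

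At Gli2, a transcription factor that carries the Hedgehog signal to target genes, the peak was distant. The gene is long (ENSMUSG00000048402; minus strand of chromosome 1, 120730638 to 120950196, 219559 bp) and no peak assigned to it lay inside. Its peak spanned 121038900 to 121040250 (1351 bp), 88.7 kb upstream of the start, farther than 73.0% of all peaks from their assigned starts. The next peak of the list lay 213 kb away and was assigned to Inhbb, which encodes an inhibin and activin subunit. Within 500 kb of the Gli2 start there were 3 other peaks, a pair assigned to Inhbb and 1 to Tcfcp2l1, and none of them within 250 kb. Igbp1b (90.1 kb) was a gene with a single upstream peak at a similar distance.

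Foxf1, a forkhead transcription factor of lung and gut mesenchyme that responds to Hedgehog signals, is listed under its older symbol Foxf1a (ENSMUSG00000042812; plus strand of chromosome 8, 123608374 to 123610779). Its peak spanned 123525750 to 123527350 (1601 bp), 81.0 kb upstream of the start. Of the 8 peaks of the 5 genes, 3 were wider than the median of the list, this one and 2 at Insig1. Within 500 kb, leaving out each gene's own peaks, there were 8 peaks around Foxf1 and 5 around Shh. There were 3 around Gli2, 2 around Ptch1 and 2 around Insig1. The 5 around Shh include the 4 peaks of Insig1, which are left out of the count for Insig1 itself. The number around genes in general was not computed. Downstream of Foxf1, 3 peaks at 127, 183 and 189 kb from its start were assigned to ENSMUSG00000043867, for which the list gives no symbol. Upstream, a peak of 2101 bp assigned to Irf8, an interferon regulatory factor gene, lay 261 kb from the Foxf1 start. Podxl (80.4 kb) and Eya1 (81.9 kb) had the most similar single upstream peak.

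**Figure D1:**
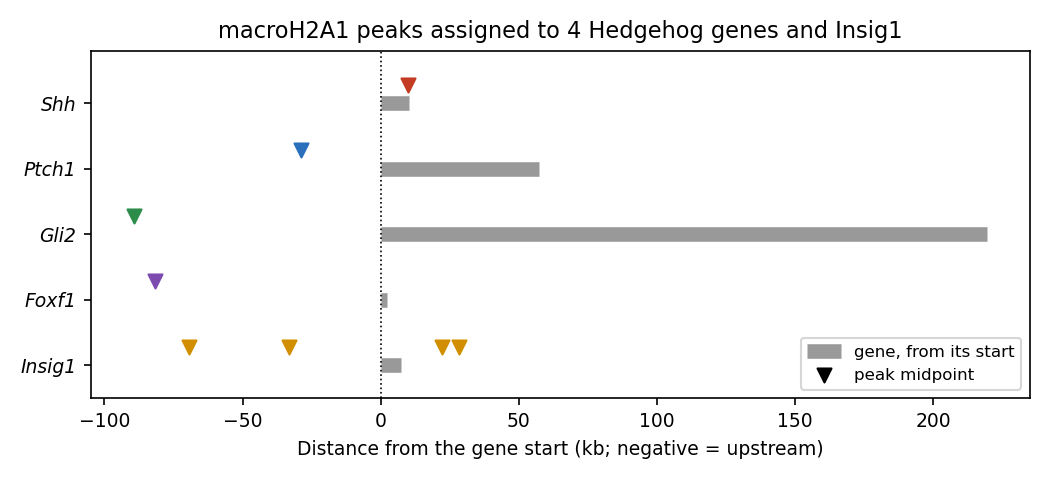
Midpoints of the peaks (triangles) of each of the 5 genes by distance from the gene start in kb, with negative values upstream; grey bars are the genes, drawn to scale from their start. The single peaks of Ptch1, Gli2 and Foxf1 lie upstream, that of Shh lies at the gene end, and the 4 of Insig1 lie 2 on each side of the gene.

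Insig1 (ENSMUSG00000045294; plus strand of chromosome 5, 28397907 to 28405201, 7295 bp) was flanked by its 4 peaks. The upstream pair spanned 28327600 to 28329550 (1951 bp) and 28363950 to 28365350 (1401 bp), 68.4 and 32.6 kb before the start. The downstream pair spanned 28419350 to 28421150 (1801 bp) and 28425800 to 28427050 (1251 bp), 21.4 and 27.9 kb past the start. The outer edges of the 4 were 99.5 kb apart, and the downstream pair was separated by 4.65 kb, the closest spacing among the peaks of the 5 genes. The widest of them exceeded 81.6% of all peaks of the list in width and the narrowest 18%, so Insig1 alone spanned the whole range of widths seen among the 5 genes. One other gene with a symbol, Gm5420, had 4 peaks arranged as 2 upstream and 2 downstream, with the nearest at 21.7 kb.

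From the low to the high coordinate, the stretch of chromosome 5 that holds both Insig1 and Shh had its 9 peaks in separate groups. Measured from the Shh start to the midpoint of each peak, the first lay 630 kb below and was assigned to Htr5a, a serotonin receptor gene. The Insig1 peaks followed at 465, 429, 373 and 367 kb below. No peak lay in the next 356 kb, up to the peak at the end of Shh. In the RefSeq gene order En2 (a homeobox gene of the midbrain and hindbrain), Cnpy1 and Rbm33 lie between Insig1 and Shh, and none of them was assigned a peak.

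On the other side of Shh, which is its upstream side, a peak assigned to the pseudogene Gm10290 (28909900 to 28911050, 1151 bp) lay 117 kb from the Shh start. After a further 404 kb without a peak, a pair of peaks lay 522 and 536 kb upstream of Shh, at 29314950 to 29316300 (1351 bp) and 29329400 to 29330550 (1151 bp). Both were assigned to Rnf32, a ring finger gene whose start was still 206 and 192 kb away, and 13.1 kb separated them. Lmbr1, the gene known for holding a distant limb enhancer of Shh in an intron, was assigned no peak. Of 14 protein-coding genes in this neighbourhood, from Dpp6 to Dnajb6, 6 had a peak, beside 6.16% of all such genes: Dpp6 with 3, Htr5a, Insig1, Shh, Rnf32 with 2, and Mnx1, a motor neuron homeobox gene. The neighbourhood was chosen for its peaks, so nothing follows from this share.

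**Figure D2:**
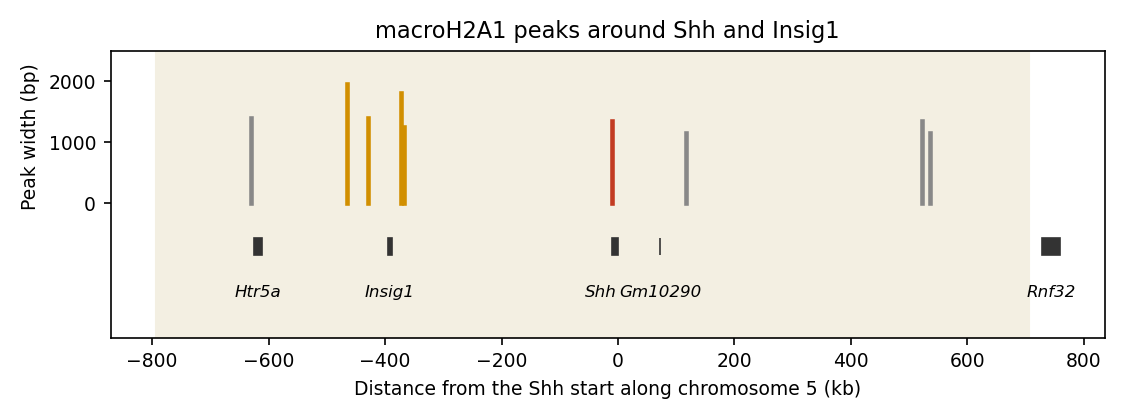
Peaks along chromosome 5 by distance in kb from the Shh start (line height is peak width in bp; orange, Insig1; red, Shh; grey, other genes), with the listed genes as black blocks and the stretch of 1.5 Mb that holds both genes shaded. The 4 Insig1 peaks stand together 367 to 465 kb below the Shh start, and the Rnf32 pair stands 522 and 536 kb above it.

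The limits of the stretch fell in gaps between peaks. The outermost peaks inside it, those at Htr5a and the second at Rnf32, were 163 and 169 kb from the limits. The nearest outside were a peak at ENSMUSG00000080941, 804 kb below, and the Mnx1 peak at 29796300 to 29797450, 296 kb above. The 9 peaks covered 0.854% of the stretch, at 6 per Mb. Over the span from the first to the last peak, chromosome 5 had 1.68 peaks per Mb, covering 0.276% of it, and all chromosomes together had 1.04 per Mb. When chromosome 5 was divided into 101 consecutive tiles of the same length, laid so that the stretch was 1 of them, the median tile had 2 peaks and 26 tiles had none. The stretch was among 4 tiles with 9 or more, of which the fullest had 19. It was chosen for its peaks, so these counts describe it and were not tested.

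**Figure D3:**
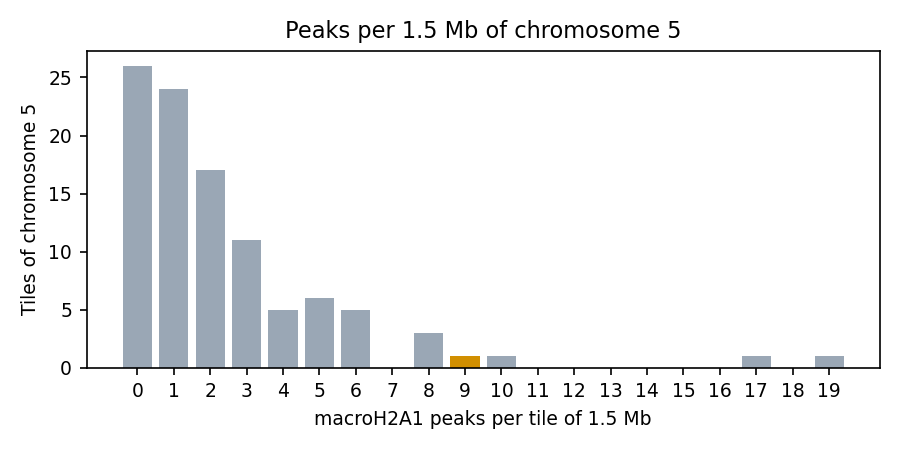
Number of tiles of 1.5 Mb on chromosome 5 (vertical axis) by the number of macroH2A1 peaks in them (horizontal axis), with the tile that holds Insig1 and Shh in orange. That tile has 9 peaks, against a median of 2.

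In width and distance the peaks of the 5 genes lay within the range of the list. Their widths ran from 1251 to 1951 bp with a median of 1376 bp, against a median of 1551 bp (interquartile range 1301 to 1814 bp) for all peaks. Their distances from the gene start ran from 9.09 to 88.7 kb with a median of 30.3 kb, against 32.2 kb (10.6 to 97.7 kb). In the authors' position classes 5 of the 8 were upstream, 2 downstream and 1 over the gene end, while 51.4% of all peaks were upstream and 14.2% inside their gene. None of the 8 was classed as inside. The gap to the next peak of the list had a median of 73.8 kb for the 8 peaks and 224 kb for all. The Insig1 peaks, 34.4 kb or less from the next, account for the 4 smallest gaps among the 8.

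**Figure D4:**
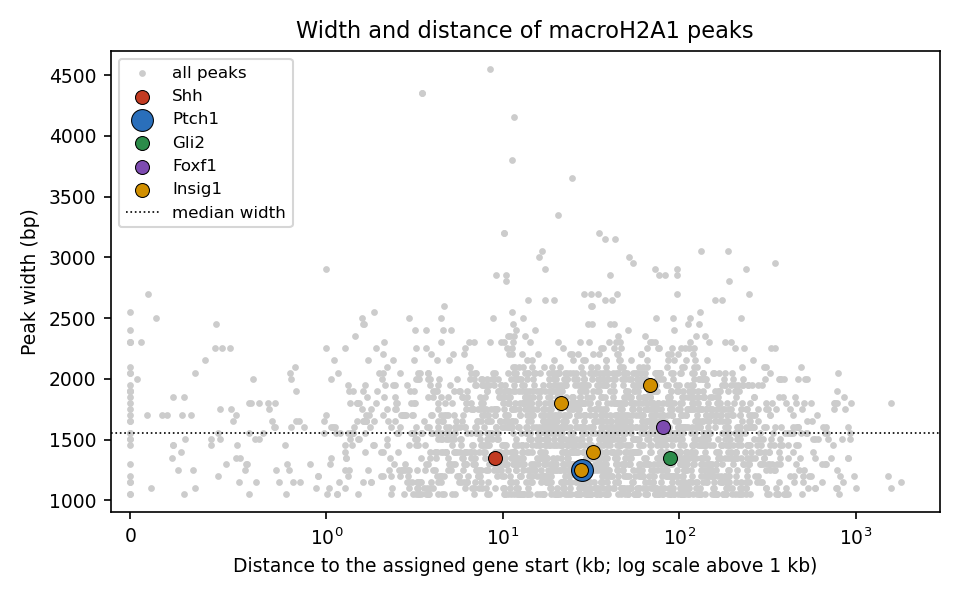
Peak width in bp against distance to the assigned gene start in kb (log scale above 1 kb) for all 2560 peaks (grey) and those of the 5 genes (coloured; the Ptch1 peak lies behind an Insig1 peak of the same width), with the median width dotted. Of the 8 coloured peaks, 3 lie above the dotted line, at Foxf1 and Insig1.

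Other genes of the pathway also had peaks, where having a peak means that the list assigned one to the gene by symbol. Of 39 Hedgehog genes, 8 had at least 1 assigned peak (20.5%, beside the 6.16% of all protein-coding genes); 4 of these are genes described above, and among the remaining 35 the number was 4 (11.4%). Part of the pathway was known to have peaks when the list was written, so the share was not tested. Among ligands, Shh had a peak and Ihh and Dhh had none. Among 3 genes for making and releasing the ligand, Hhat, the acyltransferase that attaches palmitate to it, had a peak of 1701 bp at 18.9 kb upstream (chromosome 1, 194616350 to 194618050), while Disp1 and Scube2 had none.

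Of 7 receptors and co-receptors, 2 had a peak. Besides Ptch1, this was Hhip, a membrane decoy for the ligand, with a peak of 1051 bp inside the gene at 5.16 kb from its start (chromosome 8, 82575700 to 82576750). Smo, Cdon, Boc, Gas1 and Lrp2 were assigned none. The Hhip peak was the only 1 of the 9 peaks at these Hedgehog genes to be classed as inside its gene. Its width is the smallest in the deposited list and is shared by other peaks, such as the one assigned to Tcfcp2l1.

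Among 11 effectors and their regulators Gli2 alone had a peak. The other Gli genes, Gli1 and Gli3, had none, nor did Sufu, which retains Gli factors in the cytoplasm, Kif7, Stk36, Spop, Gpr161, Prkaca, Gsk3b or Csnk1a1. Of 15 targets, 3 had peaks. Besides Foxf1, its relative Foxf2 had a peak of 1751 bp, 10.2 kb downstream of the start (chromosome 13, 31727850 to 31729600), and Mycn, a growth-promoting transcription factor, had a pair upstream, at 3.31 and 69.6 kb. The targets Foxa2, Foxm1, Nkx2-1, Nkx2-2, Nkx6-1, Olig2, Ccnd1, Bcl2, Bmp4, Hand2, Osr1 and Sox9 had no assigned peak. Over the 9 peaks at Hedgehog genes the median distance was 18.9 kb, beside 32.2 kb (interquartile range 10.6 to 97.7 kb) for all peaks. Of the 9, 3 lay within 10 kb of the start, where the lower quartile of all peaks was 10.6 kb. Upstream lay 6 of the 9, beside 51.4% of all peaks. None covered a start, beside 1.17% of all peaks that did. Counting only peaks within 50 kb of the start, which leaves out Gli2 and Foxf1, 6 of the 39 genes had one, beside 4.35% of all genes. The 6 include Shh and Ptch1, which were chosen for having peaks. Counting only peaks wider than 1551 bp, 3 had one (Hhat, Foxf1 and Foxf2), beside 3.22%, and Foxf1 was likewise chosen. By exact current symbol the number was 7, without Foxf1 but with the chosen Shh, Ptch1 and Gli2, beside 5.45%.

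Around Insig1 in function, 2 of 20 genes of sterol regulation and synthesis had a peak (10.0%, beside the same 6.16%). They were Insig1 and Sqle, the squalene epoxidase of cholesterol synthesis, whose single peak was 2701 bp wide and lay 28.8 kb upstream (chromosome 15, 59115150 to 59117850). Without Insig1, the number was 1 of 19 (5.26%), near the share of all genes. Insig2, the close relative of Insig1, had no assigned peak, nor had Scap, Srebf1 or Srebf2.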

How the data were processed

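MacroH2A1 and IgG ChIP-seq libraries were made from E14 cells, 1 of each, per the labels. Reads were mapped with Bowtie to NCBIM37 (mm9), per the submitters' processing notes. The deposited table is a list of peaks for macroH2A1, whose names begin with CCAT, a peak caller. Its columns are those of ChIPpeakAnno, per the headers, and give each peak an assigned gene. The headers do not state how that gene was chosen. What threshold and control the caller used is not given in the sources used here, and no values of the IgG library were analysed here. All values are positions and lengths in bp, and peak starts and ends lie on steps of 50 bp. Each peak name ends in a number of unstated meaning, which was not used.

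Distances were computed with Python 3.11.15 and pandas 2.3.3 as the gap between a gene start and the closer edge of its peak, and functions were tested on made-up peaks with known distances. List genes were looked up by current or older symbol, with the chromosome required to match, in RefSeq (GRCm38.p6, used for names, gene order and promoters). Some genes of the lists are not reported here and were left out of their counts. The 891 peaks (34.8%) without a symbol could not be matched. The share of genes with a peak was taken over 21631 protein-coding genes. No test was made, with 1 library per group. The genes, the stretch and the lists were chosen with earlier results of these data known. The named genes were the 5 genes, list members, genes assigned a peak in the stretch, their neighbours and, per gene, up to 2 genes with the same number and classes of peaks and the closest distance. Alternatives were the wider peaks, distance limits, joined peaks, midpoints, longer limits of the stretch and exact symbols.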

Additional observations from a re-analysis of the deposited data

How the results depend on the processing

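Of 38 values recomputed under the alternatives, 31 stayed within 1.5 times the value given. Some of the 31 could not have changed, so their number does not measure stability. All peaks of the 5 genes lay within 88.7 kb of the start, so the 100 kb limit removed none. Joining cannot alter a gene with a single peak, and no peak lay in the 250 kb added on each side of the stretch. The other 7 all moved when only peaks wider than 1551 bp, the median, were kept. The peaks of the 5 genes then fell from 8 to 3 (1 at Foxf1, 2 at Insig1 and 0 at Shh, Ptch1 and Gli2). Those of the stretch fell from 9 to 2, and the Hedgehog genes with a peak from 8 to 3. A cut at the median lowers such counts over the whole list too. The share of all protein-coding genes with a peak fell from 6.16% to 3.22%. The sterol genes with a peak stayed at 2, namely Sqle and Insig1, of which Insig1 was chosen for its peaks. The list gives no column for a score or depth, so a gene without a listed peak is not shown to lack macroH2A1. No paired analysis was possible because each group has 1 library.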
